A study of Mus musculus with 57 samples.

Results

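Glial intermediate filaments were followed through the messages of 4 genes, Gfap, Vim, Nes and Synm, taken by symbol from a table of 21118 genes. All 4 were measured in each of the 53 libraries, with no fewer than 26 counts in any of them. The libraries hold ribosome-bound RNA from the cerebral cortex of C57BL/6 mice that carried Aldh1l1-L10-GFP, a ribosomal protein tagged with green fluorescent protein and driven by the promoter of Aldh1l1, a gene of astroglia. Every animal carried this transgene and none received a treatment that the labels name. Tagged polysomes, held on their messages with cycloheximide, were pulled out of homogenised whole cortex with an antibody to the tag (translating ribosome affinity purification, TRAP). The pull-down follows cells with an active Aldh1l1 promoter, and libraries of unselected cortical RNA were not used here. The study compared the sexes across postnatal development. At P1 (postnatal day 1) and P4 each sex was represented by 4 animals. There were 8 animals labelled female and 4 labelled male at P7, 5 of each at P14, 3 of each at P35, and 4 females and 5 males among adults, whose age in days the labels do not give.

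Intermediate filaments are the strap-like cytoskeletal fibres that give a cell tensile strength. Vimentin, the product of Vim, builds filaments by itself and also serves as the partner on which nestin, the product of Nes, assembles in radial glia and other neural progenitors. Glial fibrillary acidic protein, the product of Gfap, takes over as the main filament protein while astrocytes mature and is the classical marker of these cells. Synemin, the product of Synm, does not polymerise alone and joins vimentin or desmin filaments, linking them to dystrophin, utrophin and adhesion proteins at the membrane.

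In GENCODE release M21 on GRCm38, Gfap (ENSMUSG00000020932) lies at chr11:102887336-102900912 on the minus strand and Vim (ENSMUSG00000026728) at chr2:13573927-13582826 on the plus strand. Nes (ENSMUSG00000004891) lies at chr3:87971078-87980451 on the plus strand and Synm (ENSMUSG00000030554) at chr7:67730160-67759742 on the minus strand. Exons of Synm share 84 bases with Ttc23 and 426 bases with the predicted gene Gm45102, both on the opposite strand. The strand setting of the counting is not given in the sources used here, so reads in those stretches could be split or shared. The span of Gfap overlaps that of the noncoding gene Gm26668, on the opposite strand, and shares no exon base with it.

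The sequence around each start of transcription is shown with the short motifs found there, which differ in part between the 4 genes. Sequences are from RefSeq on GRCm38.p6, read 5′ to 3′ on the gene's own strand, with matches in capitals. Positions count from the RefSeq start, with -1 as the last base before it and 1 as the first base of the RefSeq transcript. GENCODE also places starts upstream of the RefSeq start for Gfap, Vim and Nes. All 250 bases before the Vim start, the printed stretch included, lie in GENCODE exons. The Gfap stretch is chr11:102897194-102897223, positions -23 to 7. The Vim stretch is chr2:13574266-13574295, positions -45 to -16. The Nes stretch is chr3:87970993-87971077, positions -100 to -16. The Synm stretch is chr7:67759743-67759842, positions -100 to -1.
Gfap: caggctattcaatgggggtgcTTCCAGGAA
Vim: ttcctaacagtgtTATAAAagcagcgccct
Nes: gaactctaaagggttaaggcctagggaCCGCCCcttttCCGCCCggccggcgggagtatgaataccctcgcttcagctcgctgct
Synm: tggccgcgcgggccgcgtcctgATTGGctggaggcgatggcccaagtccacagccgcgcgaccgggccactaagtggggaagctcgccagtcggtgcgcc

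Capitals in the Gfap stretch mark a match to TTCNNNGAA, the palindrome that STAT factors bind, at position -2. In the Vim stretch they mark a TATA box, TATAAA, at -32. Those in the Nes stretch mark 2 GC boxes, GGGCGG read on the other strand, at -73 and -62. In the Synm stretch they mark a CCAAT box read on the other strand at -78. Both strands of the 300 bases from 250 before to 50 after each start were searched for 6 motifs. Besides the matches shown, Vim held CCAAT at -196 and, on the other strand, at -94, and Nes held the SOX motif ACAAT at -161. The NFI palindrome, TTGGC and GCCAA with 5 bases between them, was found in none of the 4 windows. Among 32851 RefSeq promoters of the same length, TATAAA occurred in 13.6%, CCAAT in 37.4%, GGGCGG in 35.7%, TTCNNNGAA in 8.3%, ACAAT in 31% and the NFI palindrome in 0.0365%. These matches describe letters in a window and say nothing of whether a factor was bound.

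Library totals ran from 14768178 to 48541139 counts with a median of 24033399. Levels are given as CPM, a count as a share of the library's total scaled to a common size, after TMM adjustment (a correction for differences in composition), as mean ± SD over animals. Aldh1l1 stood at 141 ± 105 CPM at P1 (n = 8) and 188 ± 74.7 CPM in adults (n = 9), and the astrocyte genes Aqp4 and Slc1a3 were detected in every library. At P1, however, Aldh1l1 ran from 10.1 to 332 CPM, Aqp4 from 20.1 to 381 CPM and Slc1a3 from 1.41 to 508 CPM. Sex-linked transcripts went against the labelled sex in 11 libraries, and 3 libraries (P1 female 4, P7 female 40 and P14 male 4) had 10 or more counts in fewer than 15000 genes. Labels of separate animals share a number (1, 2, 3, 4 or 6), here called the replicate set. Another 4 animals at P7, from the second sequencing run alone, form a set of their own. A further 5 libraries carry 10, 30, 40 or 60 in their labels (3 at P7, 1 at P35 and 1 adult). They were placed in sets by the first digit, which the labels do not explain, and all 5 are among the 11 libraries above. Without those 11 the changes from P1 to adulthood were 2.74 for Gfap, -1.51 for Vim and -4.56 for Nes, all called. The set was a term in the models except where one without it is named. Changes are log2 differences ± SE from the edgeR quasi-likelihood test, averaged over the sexes, and adjusted p-values are Benjamini-Hochberg values over all 21118 genes. A call is an adjusted p under 0.05. In bulk RNA, fewer cells of a type and less RNA per cell cannot be told apart.

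Between P1 and adulthood the filament messages diverged. Gfap rose 6.51-fold, Vim fell 2.99-fold and Nes fell 21.1-fold, whereas a change of Synm was not detectable. Thus 3 of the 4 genes were called, against 41.3% of all genes (21.8% called higher and 19.5% called lower).

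Gfap at P1 stood at 900 CPM in female 1 and 463 CPM in male 1, at 247 CPM in male 2, and between 84.3 and 198 CPM in the other 5 libraries. Adult levels ran from 265 CPM in male 60 through a median of 1620 to 3110 CPM in male 1. The ages overlapped, since the lowest adult lay below the 2 highest P1 libraries, which belong to another replicate set. Within each set the adults were higher, by log2 1.98 in set 1, 3.08 in set 2, 3.04 in set 3, 3.68 in set 4 and 1.65 in set 6. Sets 1, 3 and 4 hold 2 libraries at each of these ages, and set 2 holds 1 at P1 and 2 in adults. Set 6 holds 1 at each, P1 female 6 and adult male 60, which differ in labelled sex. The fitted change of Gfap was 2.70 ± 0.28 (adjusted p = 1.9e-10). Among all genes, 8.97% had a change of larger size. Averaged over the 53 libraries, Gfap ranked 77th in CPM.

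Vim ran from 87.7 CPM through a median of 211 to 505 CPM at P1, and from 21 through 82.7 to 153 CPM in adults. Adult male 1, the highest adult, lay above the P1 females 4 and 6. All 5 sets showed lower adult levels, between log2 -2.06 in set 6 and -1.32 in set 2. The fitted change of Vim was -1.58 ± 0.23 (adjusted p = 5.34e-07).

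Nes showed the largest change of the 4. Its P1 libraries ran from 9.91 CPM in female 4, one of the libraries with few genes detected, through a median of 55.7 to 106 CPM in male 1. Adults ran from 0.9 CPM (27 counts) in male 60 through a median of 1.68 to 6.2 CPM in male 3. Every P1 library lay above every adult library, a separation found for 6.26% of all genes. The fitted change of Nes was -4.40 ± 0.37 (adjusted p = 1.13e-12), and 2.14% of genes had a change of larger size. Within sets, Nes differed by log2 -5.25 to -3.57.

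For Synm the change from P1 to adulthood was not called. At P1 it ran from 4.42 CPM through a median of 16.8 to 52 CPM, and in adults from 13.4 through 15.5 to 75.7 CPM. The 2 highest libraries at each of these ages were those of set 3. The fitted change was 0.37 ± 0.29, with a 95% interval from -0.20 to 0.93 and an adjusted p of 0.319. Within sets the difference ran from 0 in set 4 to log2 1.75 in set 2.

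**Figure D1:**
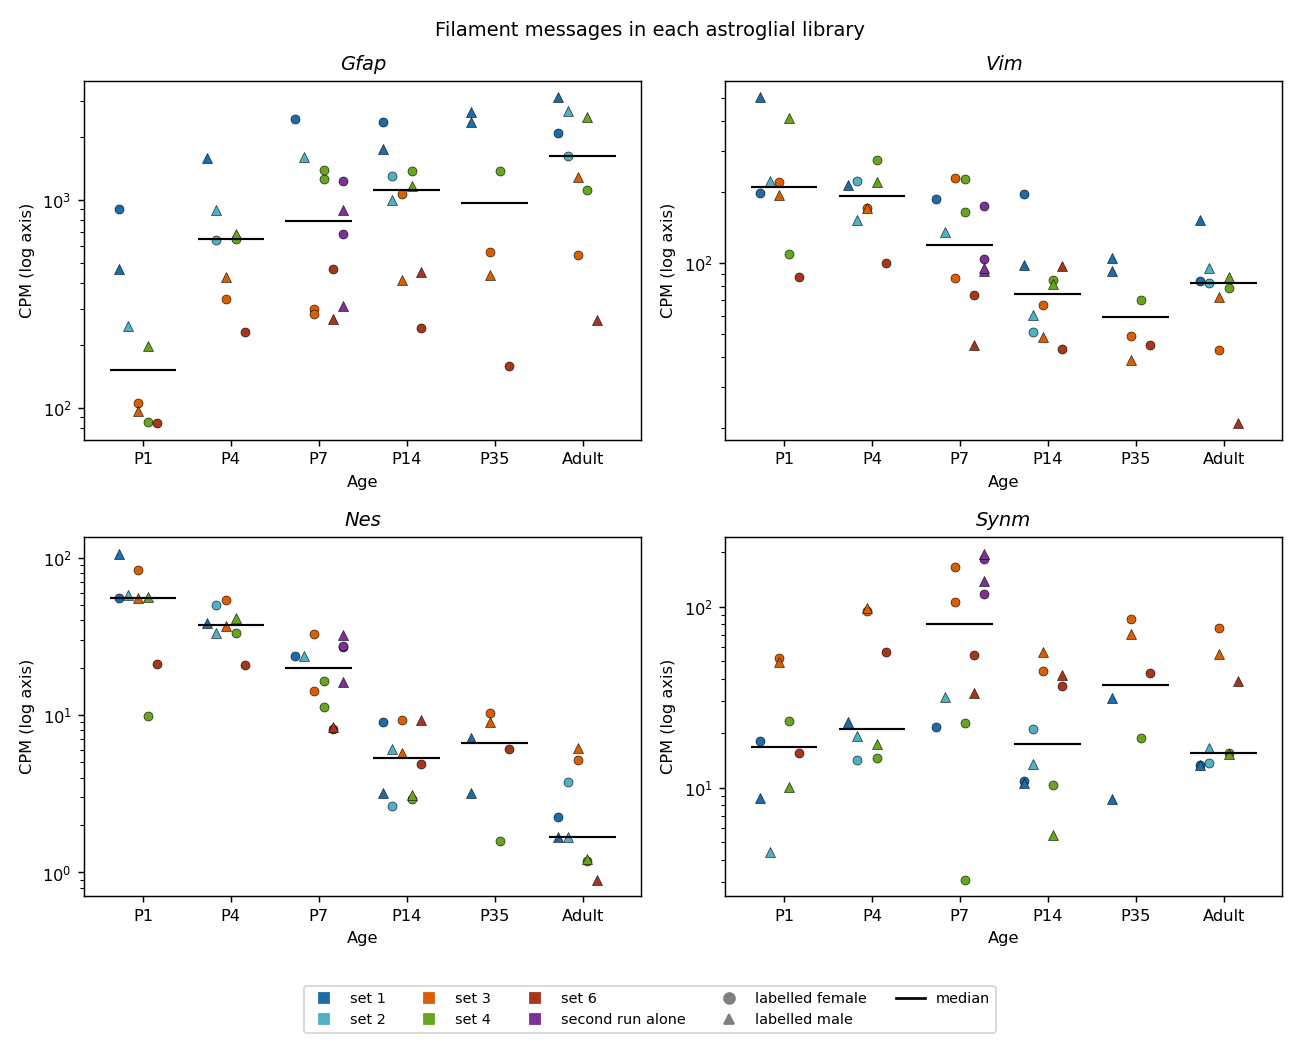
Levels of Gfap, Vim, Nes and Synm in CPM (log axis) in each of the 53 libraries by age. Colours mark the replicate set, circles animals labelled female, triangles animals labelled male, and black lines the median of an age. Gfap medians climb from 152 CPM at P1 to 1620 CPM in adults, Nes medians drop from 55.7 to 1.68 CPM, and the Synm points lie apart by set.

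**Figure D2:**
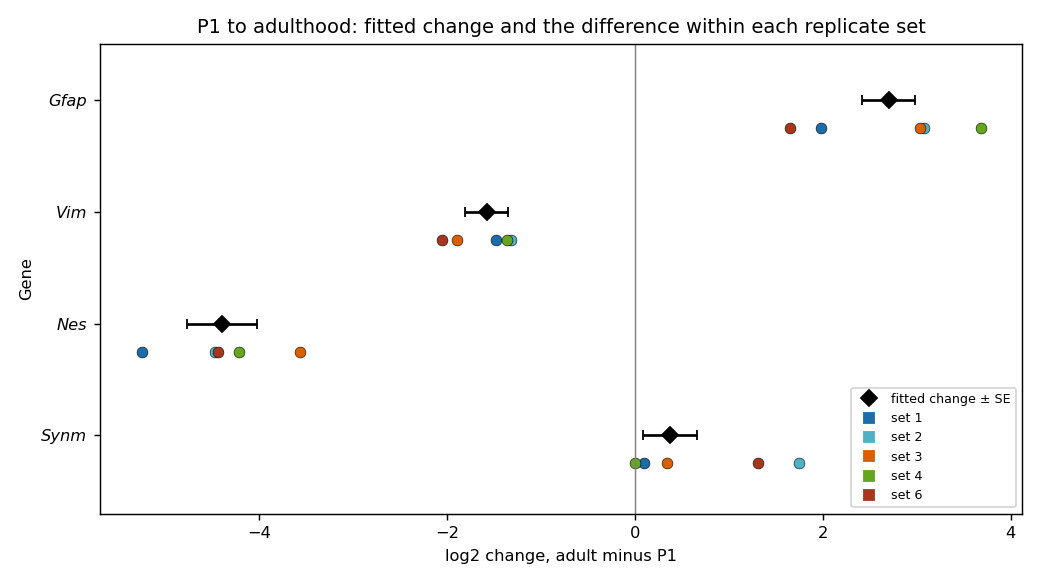
Change from P1 to adulthood on the log2 scale. Diamonds are the fitted changes with bars of 1 SE, and coloured points are the difference between the mean log2 CPM of adult and P1 libraries within each replicate set. All 5 sets lie above 0 for Gfap and below 0 for Vim and Nes, while the fitted change of Synm is 0.37 ± 0.29. Set 6 has 1 library at each age and set 2 has 1 at P1.

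Of the 5 steps between neighbouring ages, the first was the one called for Gfap. Mean levels were 273 ± 284 CPM at P1 (n = 8), 682 ± 423 CPM at P4 (n = 8) and 929 ± 683 CPM at P7 (n = 12). They were 1110 ± 650 CPM at P14 (n = 10), 1260 ± 1060 CPM at P35 (n = 6) and 1690 ± 975 CPM in adults (n = 9). P4 libraries ran from 232 CPM in female 6 to 1590 CPM in male 1, and the median of 646 CPM compares with 152 CPM at P1. From P1 to P4, Gfap rose by 1.65 ± 0.27 (adjusted p = 0.00226), at a step where 0.44% of genes were called. No later step of Gfap passed the test: its changes were 0.58 ± 0.27, 0.14 ± 0.26, -0.16 ± 0.28 and 0.49 ± 0.29. From P4 to adulthood, however, Gfap rose by 1.05 ± 0.26 (adjusted p = 0.00149). The call from P1 to P4 is not made without the replicate set in the model, where the change was 1.25 (adjusted p = 1) and 0 genes were called. That from P4 to adulthood is likewise not made, with a change of 1.33 (adjusted p = 0.0788).

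With the set adjusted for, Gfap levels ordered as 172 CPM at P1, 575 at P4, 820 at P7, 826 at P35, 913 at P14 and 1160 in adults. Of neighbours in this order, P1 and P4 differed by the test and the others did not pass it, although the 95% interval from P4 to P7 (0.05 to 1.12) lay above 0.

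Vim declined by small steps, none of which was called. From P1 through P4 to P7 mean levels were 244 ± 144, 191 ± 53.4 and 135 ± 61.3 CPM. From P14 through P35 to adulthood they were 83 ± 44.6, 66.7 ± 27.1 and 79.8 ± 36.4 CPM. The step changes were -0.16 ± 0.24, -0.52 ± 0.25, -0.67 ± 0.23, -0.44 ± 0.25 and 0.21 ± 0.26. Set-adjusted levels ordered as 199, 184, 125 and 76.2 CPM from P1 to P14, followed by adults at 66.9 CPM and P35 at 59.5 CPM. No neighbours in that order passed the test, although the 95% intervals from P4 to P7 (-1.01 to -0.04) and from P7 to P14 (-1.13 to -0.21) lay below 0. Over longer spans the decline was called, at -1.36 ± 0.22 from P1 to P14 (adjusted p = 6.19e-06) and at -1.11 ± 0.28 from P7 to P35 (adjusted p = 0.00664). Without the set in the model the latter was -0.91 (adjusted p = 0.196).

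For Nes the step that passed the test was that from P7 to P14. Its means at P1, P4 and P7 were 55.7 ± 30.8, 38.4 ± 10.3 and 20.1 ± 8.82 CPM, and those of P14, P35 and adults 5.64 ± 2.74, 6.22 ± 3.34 and 2.67 ± 1.92 CPM. P7 libraries ran from 8.15 CPM in female 6 to 32.5 CPM in female 3, and P14 libraries from 2.66 CPM in female 2 to 9.33 CPM in male 6. From P7 to P14, Nes fell by 1.58 ± 0.33 on the log2 scale (adjusted p = 0.00482), where 3.3% of genes were called. Without P7 male 2 the adjusted p was 0.0732, and without the set in the model the change was -1.57 (adjusted p = 0.134). The step from P4 to P7, at -1.21 ± 0.35, missed the threshold (adjusted p = 0.0619), where 1.67% of genes were called. From P14 to adulthood Nes fell by a further 1.28 ± 0.32 (adjusted p = 0.0172), a call not made by limma voom (-1.21, adjusted p = 0.0827) or without the set (-1.07, adjusted p = 0.281). All adult libraries lay below all those of P7 and P4 too, a separation found for 1.15% and 6.67% of all genes.

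Set-adjusted Nes levels followed the ages in order, from 46.9 CPM at P1 through 38.7, 16.5, 5.41 and 5.1 to 2.34 CPM in adults. Of neighbours in this order, P7 and P14 differed and the others did not pass the test. The step from P14 to P35 gave no call for any of the 4 genes, against 1.15% of all genes. From P35 to adulthood edgeR called 0 genes of the table, 884 had an unadjusted p under 0.05, limma voom called 0 and DESeq2 called 114. At that step the change of Nes was -1.17 ± 0.36, with an unadjusted p of 0.00229 and an adjusted p of 0.859.

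Synm averaged 22.7 ± 18.3 CPM at P1, 42.2 ± 36.2 CPM at P4 and 89.3 ± 69.6 CPM at P7. At P14 it averaged 25.1 ± 18 CPM, at P35 42.9 ± 29.8 CPM, and in adults 28.6 ± 22.8 CPM. The high mean at P7 includes the 4 libraries of the second run, at 118 to 196 CPM, and 2 of set 3, at 106 and 165 CPM, while the other 6 lay between 3.1 and 54.3 CPM. With the set adjusted for, levels ordered as 19.7 CPM at P1, 22.6 at P14, 27.7 in adults, 32.1 at P35, 36 at P4 and 36.1 at P7, and no neighbours passed the test. A test of any difference among the 6 ages called all 4 genes, where 43.5% of genes were called. For Synm its adjusted p was 0.0425, with values from 0.00284 to 0.121 when each library was left out in turn. In 30 of those 53 fits the call of Synm was lost. It was also lost without the second run (adjusted p = 0.0674) and without the set in the model (adjusted p = 0.549).

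Across the 15 pairs of ages, the test called 7 pairs for Gfap, 8 for Vim, 11 for Nes and 1 for Synm. The pair of Synm was P1 and P7, at 0.94 ± 0.32 (adjusted p = 0.0425), a call lost without the second run (adjusted p = 0.0734) and without the set in the model (adjusted p = 0.387). Shares of all genes called were 12.5%, 35.1% and 37.1% from P1 to P7, P14 and P35. From P4 they were 21.7%, 27.9% and 32.6% to P14, P35 and adulthood, and from P7 they were 10.2% and 15.4% to P35 and adulthood. From P14 to adulthood the share was 3.25%.

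Levels of different genes were compared per kilobase of exon sequence, since a longer message yields more counts. The length used was the union of exons over all annotated transcripts, 4218 bases for Gfap and 4743 for Vim. It can exceed the length of the message present, so the order of 2 genes with close values is not settled. At P1, Gfap stood at 64.6 ± 67.4 CPM per kilobase, Vim at 51.5 ± 30.3, Nes at 8.68 ± 4.8 and Synm at 2.87 ± 2.31. In adults the same values were 400 ± 231, 16.8 ± 7.67, 0.416 ± 0.3 and 3.6 ± 2.88. The ranges of Gfap and Vim overlapped at P1, and the mean of Synm lay below that of Nes at P1 and above it in adults.

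Ratios of 2 messages within a library do not depend on how that library was scaled. The log2 ratio of Gfap to Vim in CPM averaged -0.17 ± 1.06 over the 8 P1 libraries and 4.24 ± 0.46 over the 9 adult libraries. The highest P1 library, at 2.17, was female 1, and the lowest adult stood at 3.66. In P4 the ratio averaged 1.67 ± 0.69, in P7 2.55 ± 0.93, in P14 3.61 ± 0.78 and in P35 3.74 ± 1.09. The SD of this ratio was smallest in adults, whose Gfap levels spanned 265 to 3110 CPM.

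The ratio of Gfap to Nes went from 2.04 ± 1.17 to 9.23 ± 1.51, and that of Synm to Nes from -1.42 ± 1.74 to 3.34 ± 0.96, neither with overlap between P1 and adults. Vim to Nes went from 2.21 ± 0.66 to 4.99 ± 1.2, so that Nes fell further than Vim. All 6 ratios differed between P1 and adults in an exact two-sided permutation test within replicate sets. For 5 of them p was 0.000772, the smallest that the 1296 permutations can give (Benjamini-Hochberg adjusted over the 6 ratios, 0.000926). For Synm to Vim, which rose by 1.99, the exact p was 0.00463.

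**Figure D3:**
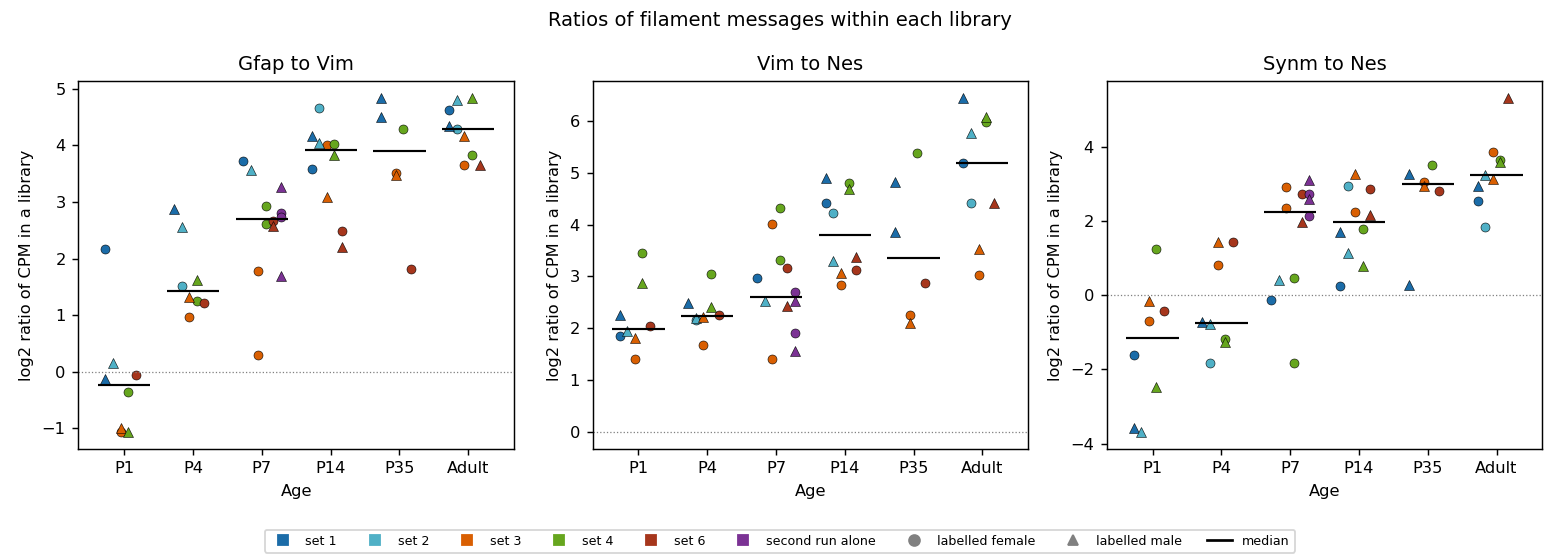
Log2 ratios of CPM within each library for Gfap to Vim, Vim to Nes and Synm to Nes, by age. Colours mark the replicate set, circles and triangles the labelled sex, and black lines the median of an age. The Gfap to Vim ratio averages -0.17 at P1 and 4.24 in adults, with no overlap, and the Synm to Nes ratio crosses 0 between P4 and P7.

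Residuals of the 53 libraries, after groups and sets were removed, were correlated for the 6 pairs of members. Vim and Nes varied together (Pearson r = 0.454, Spearman rho = 0.432, permutation p adjusted over 6 pairs 0.011 and 0.0125). Without the 2 most distant libraries r was 0.348. For Gfap and Vim r was 0.279 (adjusted p = 0.184 by permutation), and the other 4 pairs lay between -0.244 and 0.2 without passing the test.

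No difference between the sexes in these changes passed the test. In animals labelled female, Gfap rose by 2.15 ± 0.39, Vim fell by 1.31 ± 0.34 and Nes fell by 3.74 ± 0.52 between P1 and adulthood, all 3 called, against 23.4% of genes. The call of Vim in females was lost without P1 female 3 (adjusted p = 0.0598), and without the set in the model those of Vim (-1.10, adjusted p = 0.119) and Gfap (2.19, adjusted p = 0.0675) were lost. In animals labelled male, Gfap rose by 3.26 ± 0.40, Vim fell by 1.85 ± 0.32 and Nes fell by 5.06 ± 0.50, again all called, against 26.8% of genes. The female change minus the male change was -1.11 ± 0.52 for Gfap, with a 95% interval from -2.13 to -0.08 and an adjusted p of 0.983. For Nes it was 1.32 ± 0.66 (interval 0.02 to 2.62, adjusted p = 1), and although this interval leaves out 0, the unadjusted p of the edgeR test was 0.0526. For this difference edgeR called 0 genes of the table, 1041 had an unadjusted p under 0.05, limma voom called 0 and DESeq2 called 133.

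Averaged over the ages, females minus males came to -0.02 ± 0.15 for Gfap, -0.02 ± 0.14 for Vim, -0.04 ± 0.19 for Nes and 0.14 ± 0.17 for Synm. None was called, where 0.0284% of genes were. Between animals as labelled, the intervals allow a difference of up to log2 0.32 in size for Gfap, 0.29 for Vim, 0.42 for Nes and 0.47 for Synm. Because sex-linked transcripts went against the label in 11 libraries, they do not bound a difference between the sexes themselves. At no age did a member pass the test between the sexes, and 2 of these differences had an unadjusted p under 0.05. Vim at P1 averaged 155 ± 65.8 CPM in females and 334 ± 150 CPM in males, a fitted difference of -0.84 ± 0.34 (unadjusted p = 0.0176, adjusted p = 0.606). Adult Gfap averaged 1340 CPM in females and 1970 CPM in males, a fitted difference of -0.78 ± 0.36 (unadjusted p = 0.0344, adjusted p = 1).

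Gfap and Synm differed between the replicate sets. Over all ages, Gfap averaged 1980 ± 813 CPM in set 1 (n = 10), 1250 ± 742 in set 2 (n = 8), 488 ± 357 in set 3 (n = 12), 1070 ± 664 in set 4 (n = 11), 271 ± 131 in set 6 (n = 8) and 779 ± 385 in the second run (n = 4). Synm, lowest in set 4 and highest in the second run, averaged 16 ± 7.39, 16.8 ± 7.76, 79.4 ± 34.1, 14.3 ± 6.52, 39.9 ± 12.7 and 159 ± 36.6 CPM in the same order of sets. In set 3 the lowest Synm library, at 44.3 CPM, lay above the highest of sets 1, 2 and 4, at 31.5 CPM. Ages are unevenly spread over the sets, and the second run holds P7 alone.

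With groups in the model, the test of any difference among sets called all 4 genes, where 69.1% of genes were called. Relative to set 1, Gfap was lower in set 3 by -2.17 ± 0.24 (adjusted p = 6.38e-10), in set 6 by -2.94 ± 0.29 (1.8e-10), in the second run by -1.59 ± 0.39 (0.00145) and in set 4 by -1.08 ± 0.25 (0.00205). The call in the second run was lost without the 11 libraries against their sex label, 2 of them of that run (-1.19, adjusted p = 0.134). Synm was higher in set 3 by 2.24 ± 0.27 (adjusted p = 6.85e-09), in set 6 by 1.25 ± 0.31 (0.00116) and in the second run by 2.84 ± 0.41 (1.12e-06). Vim was lower in set 3, by -0.88 ± 0.21, and in set 6, by -1.48 ± 0.25. Nes differed by a call in set 4 alone, at -0.84 ± 0.31 (adjusted p = 0.0487), a call lost without the 3 libraries with few genes detected (-0.64, adjusted p = 0.188), with RLE size factors (-0.83, adjusted p = 0.0545) and without the second run (-0.83, adjusted p = 0.0645). In set 3 the difference of Nes was 0.48 ± 0.29 (adjusted p = 0.162). Shares of all genes called were 53% in set 3, 17.9% in set 4, 34.3% in set 6 and 32.6% in the second run. For set 2 edgeR called 0 genes, members included, while DESeq2 called 81, and at an unadjusted p under 0.05 1126 genes passed in edgeR.

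**Figure D4:**
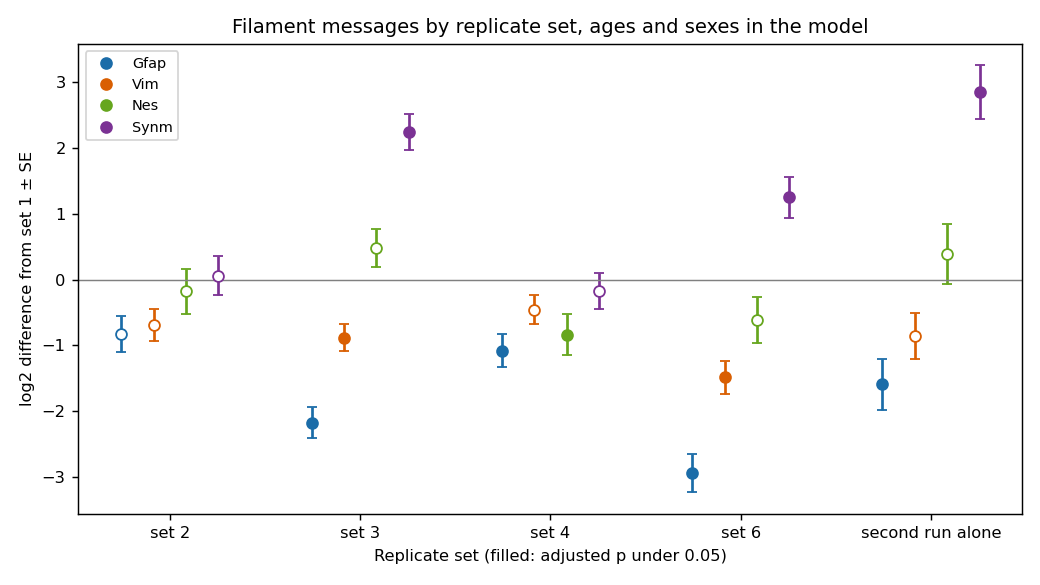
Difference of each replicate set from set 1 on the log2 scale, with ages and sexes in the model, for the 4 genes. Points are fitted differences with bars of 1 SE, and filled points have an adjusted p under 0.05. In set 3 Gfap lies at -2.17 and Synm at 2.24, and in set 6 at -2.94 and 1.25.

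Markers of neurons moved with the sets. The summed level of 17 neuronal markers ran from 1610 to 3430 CPM over the libraries of set 1 and from 2200 to 3320 CPM in set 2. It ran from 3690 to 10500 CPM in set 3, from 2370 to 10100 CPM in set 4, from 8370 to 11400 CPM in set 6 and from 6560 to 11800 CPM in the second run. Relative to set 1, 17 of the 17 were called higher in set 3, 7 in set 4, 15 in set 6 and 15 in the second run. Of 24 mature astrocyte markers, 23 were called lower in set 3, 12 in set 4, 24 in set 6 and 21 in the second run. In set 3, 10 of 13 endothelial markers were called higher and 1 lower, and 7 of 8 ependymal markers were called lower. There 28.2% of all genes were called higher and 24.8% lower. Endothelial markers gave 1 higher and 0 lower in set 4, 1 and 2 in set 6, and 0 and 1 in the second run. Ependymal markers called lower numbered 0, 4 and 4 in these sets. With the mean level of the neuronal markers added to the model, the differences of Gfap, Vim and Synm in sets 3 and 6, and of Gfap and Synm in the second run, were no longer called. This loss was not particular to the members. Genes called in the whole table went from 11183 to 0 in set 3, from 7240 to 0 in set 6 and from 6878 to 43 in the second run. Under that model Synm in set 3 stood at -0.55 (adjusted p = 0.999) and Gfap in set 3 at -0.29 (adjusted p = 0.999). The changes from P1 to adulthood kept their calls for Gfap, Vim and Nes, and Synm reached 0.67 (adjusted p = 0.015).

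The other intermediate filament genes were measured for 21 of 23 listed. From P1 to adulthood 7 were called higher and 3 lower, where 21.8% of all genes were called higher and 19.5% lower. Their median change was 0.27 against 0.06 over all genes. Lmnb1, which encodes the nuclear lamin B1, fell from 90.4 ± 39.9 to 4.49 ± 2.84 CPM (-4.29 ± 0.35). Of the genes of neurofilaments, which fill axons, 3 rose and 1 fell. Nefl rose from 85.8 ± 72 to 325 ± 270 CPM (2.07 ± 0.18), Nefm from 46.5 ± 41.9 to 199 ± 175 CPM (2.22 ± 0.17) and Nefh from 3.23 ± 2.67 to 58.4 ± 54.5 CPM (4.21 ± 0.48). Ina, encoding alpha-internexin and named here after its values were seen, fell from 371 to 268 CPM (-0.43 ± 0.17, adjusted p = 0.032). In set 3 relative to set 1, 9 of the 21 were called higher and 1 lower, where 28.2% of all genes were called higher and 24.8% lower. Nefl and Nefm were each higher there by log2 2.44, beside 2.24 for Synm. In set 6 they were higher by 1.58 and 1.34, beside 1.25 for Synm, and in the second run by 1.87 and 2.08, beside 2.84. Whether these differences have a source in common was not tested.

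Messages of proteins that anchor filaments were followed next. Of 13 linker genes measured of 14, 7 were called higher and 1 lower, with a median of 1.36, where 21.8% of all genes were called higher and 19.5% lower. Plec, encoding plectin, which ties intermediate filaments to the other cytoskeletal systems and to membrane junctions, rose from 14.4 ± 11.6 to 99.9 ± 77.9 CPM (2.93 ± 0.36). Dmd (dystrophin) rose by 1.52 ± 0.20, Utrn (utrophin) by 1.47 ± 0.33 and Dst (dystonin) by 1.49 ± 0.30. The adhesion genes of the list, named here after their values were seen, did not all move. Vcl rose by 1.36 ± 0.49 (adjusted p = 0.023), whereas Tln1 (0.07 ± 0.19, adjusted p = 0.797) and Zyx (-0.19 ± 0.15, adjusted p = 0.325) were not called.

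Of 8 chaperone genes, 5 were called higher and 1 lower, with a median of 1.17, where 21.8% of all genes were called higher and 19.5% lower. Cryab, encoding the small heat shock protein alpha-B crystallin that binds GFAP and vimentin filaments, rose from 32.6 ± 18.7 to 618 ± 267 CPM (4.11 ± 0.34). Hspb8 rose by 1.98 ± 0.24 and Hspb1 by 1.85 ± 0.39, and Dnajb1 fell by 0.52 ± 0.14.

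Enzymes that modify filaments moved in both directions, where 21.8% of all genes were called higher and 19.5% lower. Of 17 kinases and phosphatases, 4 were called higher and 6 lower (median -0.08). The mitotic kinases that phosphorylate vimentin all fell: Cdk1 from 58.4 ± 18.6 to 1.01 ± 0.856 CPM (-5.78 ± 0.59), Aurkb (-5.39 ± 0.71) and Plk1 (-5.01 ± 0.67). Camk2a, a kinase abundant in neurons, rose by 4.00 ± 0.34. Of 8 genes of filament turnover and modification, 2 were called higher and 2 lower (median -0.24). Padi2, a deiminase that citrullinates GFAP and vimentin and is also made by oligodendrocytes, rose from 2.9 ± 2.4 to 105 ± 34.7 CPM (5.25 ± 0.41). The protease genes went both ways, with Casp6 down by 0.75 ± 0.23 and Capn1 up by 1.45 ± 0.34.

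Regulators of the 4 genes' transcription, 28 in all, gave 8 called higher and 11 lower (median -0.01). Over all genes, 21.8% were called higher and 19.5% lower. Nfib fell from 532 ± 118 to 214 ± 29 CPM (-1.30 ± 0.13) while Nfic, of the same family, rose from 70.9 ± 25.7 to 213 ± 53.3 CPM (1.59 ± 0.21). Ezh2, the methyltransferase of the Polycomb repressive complex, fell by 3.08 ± 0.29, and the POU factor gene Pou3f1 fell from 129 ± 60.7 to 50.9 ± 43.8 CPM. Genes linked to reactive astrocytes, a state in which Gfap and Vim are known to rise together, numbered 30. Of these 6 were called higher and 7 lower (median 0.13), near the shares over all genes. Ptx3 fell by 2.87 ± 0.46 and Aspg rose by 3.23 ± 0.75. Of 15 radial glia genes, 3 were called higher and 5 lower (median 0.14). Fabp7 fell from 11400 ± 7050 to 749 ± 464 CPM and Tnc from 18.6 ± 12.7 to 2.18 ± 1.8 CPM, whereas Hopx rose from 154 ± 95.7 to 780 ± 457 CPM and Sox2 by 0.97 ± 0.21.

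Vim and Nes are also made by blood vessel, meningeal, ependymal and dividing cells, so markers of these were followed beside them. Over all genes, 21.8% were called higher and 19.5% lower from P1 to adulthood. All 12 markers of dividing cells were called lower from P1 to adulthood, with a median change of -4.55, and their sum fell from 154 to 507 CPM at P1 to 8.16 to 30.1 CPM in adults. Of 8 ependymal markers, 5 were called lower and 1 higher. Their sum ran from 42 to 207 CPM at P1 and from 15.3 to 39 CPM in adults. Of 13 endothelial markers, 3 were called higher and 1 lower, with sums from 47.2 to 90.4 CPM and from 30.1 to 197 CPM. Pecam1, a defining endothelial gene, stood at 0 in 1 library at each of these ages. Mural markers (8) gave 1 higher and 1 lower, with sums from 9.07 to 89.6 CPM and from 30.8 to 101 CPM. Of 8 fibroblast and meningeal markers 2 were called lower and none higher, and sums ran from 22.8 to 78 CPM and from 20 to 61.8 CPM. The part of these cells in the decline of Vim and Nes was not tested.

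Markers of the other cells were followed as well, where 21.8% of all genes were called higher and 19.5% lower. Of 24 mature astrocyte markers, 21 were called higher and none lower, with a median of 2.14 beside 2.70 for Gfap. Their summed level averaged 3000 ± 2080 CPM at P1, 4180 ± 2540 CPM at P7 and 19000 ± 8320 CPM in adults. That of the 17 neuronal markers averaged 6070 ± 3600, 7130 ± 3400 and 4970 ± 2890 CPM at the same ages. All 9 oligodendrocyte markers were called higher. Of 6 markers of oligodendrocyte progenitors, 2 were called higher and 1 lower, and of 13 microglial markers 5 were called higher and none lower. Neuronal markers gave 7 higher and 7 lower of 17, and their sum ran from 2250 to 10500 CPM at P1 and from 2610 to 11400 CPM in adults.

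The genes whose set-adjusted course was most like that of each member were found over the 12 group means, among 11109 genes with a mean of at least 5 CPM. For Gfap they were Add3 (r = 0.975), Agfg2, Ppp1r3d, Paqr4 and Fgf1 (r = 0.961). For Nes they were Srsf6 (r = 0.984), Mycn, B3gnt5, Veph1 and Topbp1 (r = 0.979), and for Vim Ube2e3 (r = 0.982), G3bp1, Gnai3 and Uaca (r = 0.974). Synm had no match as close, with Psd (r = 0.849), Necab1, Cdyl2, Caln1 and Snap91 (r = 0.778). These points share the libraries and the set adjustment. Over the 53 libraries in place of the group means, the 5 leading genes shared 1 with this list for Gfap, 0 for Vim, 0 for Nes and 1 for Synm, so the names depend on the measure.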

How the data were processed

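Astroglial ribosome-bound RNA was sequenced from strand-marked, poly(A)-selected libraries of 53 animals in 12 groups of sex and age, per the labels' protocols. The authors deposited raw counts for each gene, made with CASAVA, HISAT2, SAMtools and featureCounts on GRCm38.p5, per the submitters' processing notes. No source used here gives the versions, annotation release or strand setting, so reads of overlapping genes cannot be assigned further. The 4 animals at P7 sequenced in 2 runs have 1 column each, used as it stands.

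From these counts, edgeR 4.0.16 in R 4.3.3 (TMM, robust quasi-likelihood F test) was fitted to all 21118 genes in 1 model of the 12 groups and the replicate set. No gene was removed by filterByExpr. The threshold was a Benjamini-Hochberg adjusted p under 0.05 and log2 CPM used a prior count of 2. The labels do not say that a set number marks a shared litter or day. Deviations from the group means correlated best within the library's own set in 42 of 53 libraries, with median correlations of 0.249 to 0.636 within sets and -0.312 to -0.0522 between them. By set this held for 9 of 10 libraries in set 1, 7 of 8 in set 2 and 12 of 12 in set 3. It held for 8 of 11 in set 4, for 5 of 8 in set 6 and for 1 of 4 in the second run. On simulated data for P1 to adulthood over 21118 genes, 87% of 100 genes changed 4-fold and 9% of 100 changed 2-fold were recovered, at 1 common dispersion of 0.284 for every gene. The labels call the libraries samples of separate animals.

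Alternatives were a model without the set (the second run kept as a term), RLE size factors, DESeq2 1.42.0, limma 3.58.1 voom, no filter or a mean of at least 1 CPM, each library left out in turn, without the 11 libraries whose sex-linked transcripts (under or over 1 CPM of Y-linked genes) go against the label, without 3 libraries with few genes, without the second run, and a covariate of neuronal markers. Members and lists were chosen with earlier results of these data known. Genes named from a list are up to 4 with the smallest adjusted p from P1 to adulthood. Genes most like a member are the 5 with the highest Pearson r over the 12 group means, predicted genes left out. Some genes that the naming rule picked are not reported here.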

Additional observations from a re-analysis of the deposited data

Results flagged for a closer look

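Of 40 combinations of a gene and a group of 4 to 10 animals, 5 held a library that stood apart from the others of its group. Chance alone gives about 1 in 20. Gfap in P1 female 1 was 900 CPM, with 106 CPM in the next and 84.3 CPM in the lowest library of that group. Nes in P1 male 1 was 106 CPM, with the next at 57.8 CPM. Both of these animals are of replicate set 1. Synm in adult female 3 was 75.7 CPM, with the next at 15.5 CPM, and in P4 male 3 it was 98.4 CPM, with the next at 23 CPM. In adult female 3 Vim was 42.8 CPM, with the next at 78.9 CPM. These last 3 values are of replicate set 3.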

How the results depend on the processing

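Gfap, Vim and Nes kept their direction and call from P1 to adulthood under every alternative run, and all 6 ratios remained called. With each library left out in turn, the change of Gfap ranged from 2.52 to 2.89, that of Vim from -1.69 to -1.40, that of Nes from -4.64 to -4.26 and that of Synm from 0.21 to 0.58. In those fits the members called numbered 3 from P1 to adulthood, 3 to 4 over any age, 2 to 3 over the 5 steps, 5 to 6 within the sexes, 4 between sets and 6 of the ratios. The change of Synm from P1 to adulthood was 0.67 with the neuronal covariate (adjusted p = 0.015), against 0.37. That covariate also turned the sign of 3 set differences, to -0.55 for Synm in set 3, -1.44 for Synm in set 6 and 0.29 for Gfap in the second run. The cause of these shifts was not tested.

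Over the steps, 2 member calls in the main model became 0 with no replicate block, 4 with limma voom and 5 without the libraries with few genes detected. Over the pairs of ages, 27 calls became 17 with no replicate block. Of 1280 member values under the alternatives other than leaving out a library, 1220 stayed on their side of the threshold, 31 lost a call, 26 gained a call and 3 called values turned sign. Of the 1220, 49 that were not called turned sign, none reaching more than 0.76 in size.

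The counts of all genes called moved at the steps. From P1 to P4, 93 became 0 with no replicate block, 670 with DESeq2, 155 with limma voom, 140 with a mean of at least 1 CPM and 55 without the libraries whose sex-linked transcripts go against the label. From P4 to P7, 352 became 32, 912 and 1 with no block, with DESeq2 and without those libraries, and 1095 without the libraries with few genes. From P7 to P14, 697 became 4, 1587, 117 and 1298 in the same 4 fits, 361 without the second run and 289 with the neuronal covariate. From P14 to P35, 242 became 5, 778, 37 and 1049 in the same 4 fits and 106 with the covariate. Leaving out 1 library gave 19 (P4 male 1) to 418 (P1 female 1) from P1 to P4, 31 (P7 male 6) to 777 (P1 female 4) from P4 to P7, 74 (P7 male 2) to 1560 (P1 female 4) from P7 to P14, and 46 (P35 male 10) to 617 (P1 female 4) from P14 to P35. From P1 to P7, P14 and P35, 2637, 7415 and 7828 became 775, 4363 and 4730 with no block, and from P4 to P14, P35 and adulthood 4579, 5887 and 6884 became 1849, 3239 and 4031. From P7 to P35 and adulthood, 2159 and 3251 became 570 and 1410, and from P14 to adulthood 686 became 99. Without the libraries against their sex label, P1 to P7 gave 1745, P7 to P35 583, P7 to adulthood 1218 and P14 to adulthood 218. Without those with few genes the last 3 gave 4123, 5363 and 1939, and DESeq2 gave 1469 for the last. With no block, 9190 over any age became 5248, 4932 in females became 2260 and 5664 in males became 2612. With the covariate, 14585 between any sets became 7760, and 11183, 7240 and 6878 in set 3, set 6 and the second run became 0, 0 and 43; without the libraries against their sex label the second run gave 1839. The 6 genes that differed between the sexes became 101 with DESeq2. The share of calls that were higher from P1 to adulthood ran from 49.3 to 57.7%, against 52.7% in the main model, and the median change of all genes from -0.01 to 0.15. DESeq2 was not run for the tests over several ages or sets at once, and pairs of ages that are not neighbours were not refitted without single libraries. No fit at reduced depth was run, and the lowest count of a member was 26, for Nes in adults.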
